A study of Mus musculus with 6 samples.

Results

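Csf2 and 9 other cytokine genes of activated T cells, Il3, Il4, Il5, Il6, Il10, Il13, Ifng, Lif and Osm, were examined as 10 of the 19938 genes that the arrays measure with a probe set of their own. A gene entered through the probe sets that carry its symbol and no other, and each of the 10 genes had 1 such probe set. The cells were C1498, a mouse line of C57BL/6J background that the labels call acute myeloid leukemia (AML), and the same culture medium was used for all 6 arrays. RNA was taken after 48 h with PJ34, a small-molecule inhibitor of the enzyme PARP-1, at 20 μM, or with PBS as the control, and was hybridised to 3 arrays a group. C1498 is 1 established line grown in culture, and the labels name no T cell stimulus. The labels do not say whether the 3 arrays of a group came from separate cultures, while the study speaks of 3 independent experiments. The p-values measure only the spread between these arrays.

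T cells transcribe these genes after their antigen receptor is engaged, when calcium brings NFAT into the nucleus and AP-1, NF-κB and Egr factors bind beside it on the promoters. The mRNAs are short-lived because AU-rich elements near their ends bind decay factors such as Zfp36. Csf2 encodes GM-CSF, a growth factor of granulocytes and macrophages, and lies next to Il3, which encodes a growth factor of early blood cells and mast cells. Il4, Il5 and Il13 lie in the same cluster of mouse chromosome 11 and belong to the helper T cell response against parasites. Ifng encodes the interferon that activates macrophages, Il10 restrains inflammation, and Il6, Lif and Osm encode related proteins that signal through the shared receptor subunit Il6st, also known as gp130.

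The promoters of Csf2, of its neighbour Il3 and of Il2 are shown because the 3 genes gave different values under the same treatment. Each sequence holds the 250 bases before the gene start on the minus strand, from RefSeq on GRCm38.p6, and is placed at chr11:54249900-54250149 for Csf2, chr11:54267280-54267529 for Il3 and chr3:37125955-37126204 for Il2. Capitals mark GGAAA, the core letters that NFAT binds, TGANTCA, the letters of an AP-1 site, and TATAAA, the element that positions the polymerase, on either strand, so that TTTCC in capitals is GGAAA read on the other strand.
Csf2: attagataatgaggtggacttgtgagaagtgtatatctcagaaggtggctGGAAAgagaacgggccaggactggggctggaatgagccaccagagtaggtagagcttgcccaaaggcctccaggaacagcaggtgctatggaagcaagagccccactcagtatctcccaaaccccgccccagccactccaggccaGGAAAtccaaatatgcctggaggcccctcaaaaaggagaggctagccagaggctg
Il3: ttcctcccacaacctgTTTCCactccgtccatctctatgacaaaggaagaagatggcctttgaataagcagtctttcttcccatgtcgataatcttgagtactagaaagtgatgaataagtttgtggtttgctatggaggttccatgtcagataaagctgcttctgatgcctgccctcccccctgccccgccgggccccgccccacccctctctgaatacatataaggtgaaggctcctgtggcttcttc
Il2: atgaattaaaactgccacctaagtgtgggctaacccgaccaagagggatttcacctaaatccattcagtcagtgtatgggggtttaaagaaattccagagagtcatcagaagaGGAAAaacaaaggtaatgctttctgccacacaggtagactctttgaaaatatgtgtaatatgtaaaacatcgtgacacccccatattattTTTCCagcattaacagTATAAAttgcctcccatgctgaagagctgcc
Csf2 held GGAAA at -200 to -196 and at -55 to -51 from the gene start, Il3 held it once, at -234 to -230, and Il2 at -137 to -133 and at -47 to -43. Il2 also held TATAAA, at -31 to -26, and TGANTCA was in none of the 3 windows. Of the 10 cytokine genes 8 had a window in the table, Il4 with 2 and the others with 1. GGAAA was found in 8 of these 9 windows, all but the first of Il4, TGANTCA for 2 (Il6 and Lif) and TATAAA for 2 (Il13 and Ifng). Among all 32851 promoter windows of that length, 55.6% held GGAAA, 6.75% TGANTCA and 12.4% TATAAA. The motifs do not overlap each other in the printed windows. Such a match is a match of letters only. Each printed window sits at the outermost start of the RefSeq models of its gene, which need not be the start used in C1498. Csf2 has 1 curated (NM) and 1 predicted (XM) model, while Il3 and Il2 have 1 curated and 0 predicted models each. Which model sets the start of the Csf2 window was not traced.

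The cells were checked against markers of the label first. Mpo and Elane, which encode granule enzymes of myeloid precursors, lay at -0.62 and -0.87 log2 units from the array median, and Ctsg, Lyz2 and Spi1 at -1.69, -1.82 and -0.99. The 4 myeloid markers above the median on all 6 arrays were Fcgr1, Cd68, Cebpa and Cebpe, at 2.71, 0.54, 0.43 and 0.40. Of the subunits of the T cell receptor complex, Cd3e and Cd3g lay at 6.03 and 6.65 from the median, the highest of the T and NK markers, while Cd3d lay at 0.33 and Cd247 at -0.43. Cd28 and Zap70 lay at 3.53 and 2.87, above the median on all 6 arrays. Cd2 lay at -0.19, Cd4 at -0.29, Cd5 at -0.12 and Thy1 at -0.03. Of the mast cell and basophil markers, Cpa3 lay at 7.51, above Cd3g, and Mcpt8 at 1.68. By their means Mcpt4, Tpsb2, Ms4a2, Fcer1a, Gata2 and Hdc lay below the median. Of 16 measured markers of T and NK cells 6 were above the median on all 6 arrays, as were 4 of 16 myeloid markers, 0 of 6 B cell markers, 2 of 8 mast cell and basophil markers and 4 of 8 stromal and endothelial markers. The mean level of the T and NK list was 0.69 to 0.74 above the array median on the PBS arrays and 0.81 to 0.84 above it on the PJ34 arrays, and that of the myeloid list went from -0.66 to -0.63 with PBS to -0.59 to -0.51 with PJ34. Of all probe sets 1.72% were higher with PJ34 at an adjusted p under 0.05 from limma. In the T and NK list and in the myeloid list 2 genes each were (Cd4 and Cd28, and Fcgr1 and Cd68). Leaving out an array kept Cd4, Cd28 and Fcgr1 past the threshold in 6 of 6 fits, and Cd68 in 0 of 6. The part of these marker genes in the cytokine values was not tested. A change in the number of cells of a type cannot be told apart from a change in RNA per cell. Array medians lay between 4.41 and 4.46, and any pair of arrays correlated at 0.992 to 0.995.

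Csf2 was the member that rose with PJ34. Its log2 expression values were 3.81, 3.92 and 3.81 on the PBS arrays (mean 3.85 ± 0.06, SD, n = 3) and 4.37, 4.68 and 4.40 on the PJ34 arrays (mean 4.48 ± 0.17, SD, n = 3). Every PJ34 array was above every PBS array, with a gap of 0.45 between the groups. The log2 difference, PJ34 minus PBS, was 0.63 (SE 0.092, 95% confidence interval 0.43 to 0.84), a 1.55-fold rise (1.34 to 1.80). Over the 23412 probe sets limma gave it an adjusted p of 0.0103. By its p, Csf2 (probe set 10385912) ranked at 203. The exact two-sided permutation test gave p = 0.1, the smallest that 3 arrays against 3 allow. Of all probe sets tested 3.07% passed at an adjusted p under 0.05, 1.72% higher with PJ34 and 1.35% lower, and 1 of the 10 cytokine genes passed.

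The rise of Csf2 took place at a low signal. Relative to the array median over all 35556 probe sets, its values were -0.62, -0.50 and -0.60 with PBS and -0.08, 0.26 and -0.06 with PJ34, so that a single PJ34 array lay above the median. Its mean exceeded 39.6% of the probe sets with PBS and 50.8% with PJ34. Olfactory receptor genes, which blood cells are not expected to use, mark the low end of the scale: 1035 of their probe sets had a median of -2.19 and a 95th percentile of -0.61 on the same measure. Csf2 was above 95% of them with PBS and above 98.2% with PJ34. Among probe sets whose mean was below the array median, 0.625% passed the test, and Csf2 was 1 of these 67 of 10714. The deposited values come without detection calls, and fold changes of dim probe sets on such arrays are known to be understated.

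**Figure D1:**
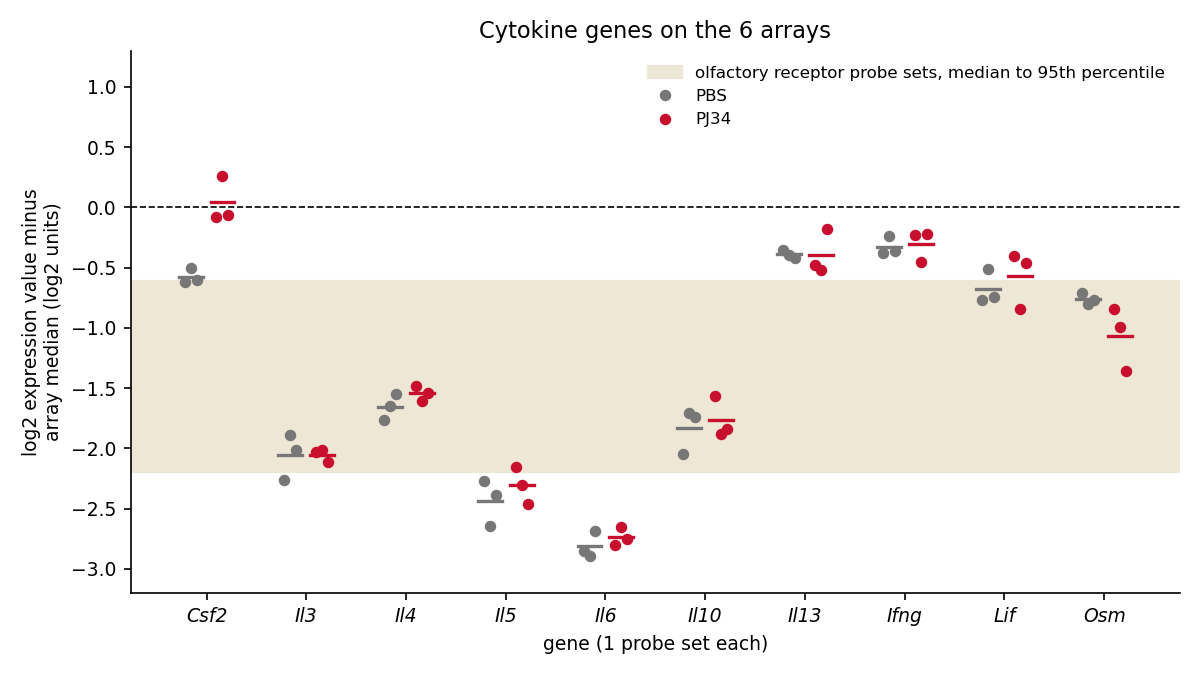
Log2 expression value minus the array median (vertical axis, log2 units) of the 10 cytokine genes (horizontal axis) on the 3 PBS (grey) and 3 PJ34 (red) arrays. Short lines are group means, the dashed line is the array median and the shaded band runs from the median to the 95th percentile of 1035 olfactory receptor probe sets. The groups are apart for Csf2 and, by a narrow gap in the other direction, for Osm.

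Il3, the nearest neighbour of Csf2 on the chromosome, did not pass. Its values were 2.18, 2.53 and 2.40 with PBS and 2.42, 2.40 and 2.34 with PJ34, and the PJ34 arrays lay inside the range of the PBS arrays. The log2 difference was 0.02 (95% confidence interval -0.19 to 0.23, adjusted p = 0.946 from limma), with a level of -2.05 from the array median in both groups. Il3 was above 56.7% of the olfactory receptor probe sets with PBS, near the floor of the array, where a change of the mRNA might not be measured.

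The 3 cytokine genes of the Il4 locus likewise did not pass. Il4, which drives antibody class switching, was at 2.67, 2.76 and 2.86 with PBS and at 2.97, 2.81 and 2.92 with PJ34. Il5, the growth factor of eosinophils, was at 2.16, 1.77 and 2.03 with PBS and at 2.29, 2.11 and 2.00 with PJ34. Il13, which acts on epithelium and mucus production, was at 4.08, 4.03 and 3.99 with PBS and at 3.96, 3.89 and 4.28 with PJ34. The groups overlapped for each of the 3 genes. The log2 differences were 0.13 for Il4 (-0.04 to 0.31), 0.15 for Il5 (-0.11 to 0.41) and 0.02 for Il13 (-0.22 to 0.25), with adjusted p of 0.432, 0.592 and 0.966 from limma. With PBS, the levels from the array median were -1.66 for Il4, -2.44 for Il5 and -0.39 for Il13.

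Ifng and Il10, which push macrophages in opposite directions, did not pass either. Ifng was at 4.06, 4.18 and 4.05 with PBS and at 4.21, 3.96 and 4.24 with PJ34, a log2 difference of 0.04 (95% confidence interval -0.16 to 0.25, adjusted p = 0.867 from limma). Il10 was at 2.39, 2.71 and 2.67 with PBS and at 2.88, 2.53 and 2.62 with PJ34, a log2 difference of 0.09 (-0.17 to 0.35, adjusted p = 0.772 from limma). In both genes 1 PJ34 array was below the PBS mean and the groups overlapped. With PBS, Ifng lay at -0.33 from the array median, above 96.8% of the olfactory receptor probe sets, and Il10 at -1.83, above 66.7% of them.

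Of the 3 cytokines that signal through Il6st, Osm had the lower values with PJ34. Osm, oncostatin M, was at 3.73, 3.61 and 3.64 with PBS and at 3.60, 3.43 and 3.10 with PJ34. The groups were apart by 0.011, and the third PJ34 array was the lowest. The log2 difference was -0.28 (SE 0.118, 95% confidence interval -0.55 to -0.01), which did not pass (p = 0.0419 unadjusted and 0.273 adjusted, from limma, and p = 0.1 by the exact two-sided permutation test). Il6, a cytokine of fever and the acute phase, was at 1.58, 1.53 and 1.72 with PBS and at 1.64, 1.76 and 1.71 with PJ34. Its level with PBS was -2.81 from the array median, above 12.4% of the olfactory receptor probe sets. Lif, leukemia inhibitory factor, was at 3.66, 3.90 and 3.67 with PBS and at 4.04, 3.57 and 4.0 with PJ34. Both groups overlapped, with log2 differences of 0.09 for Il6 (-0.08 to 0.26) and 0.12 for Lif (-0.17 to 0.42) and adjusted p of 0.601 and 0.710 from limma.

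Over the 10 genes, 9 log2 differences were positive and 1 was negative, with a median of 0.09 beside 0.0029 over all probe sets. An unadjusted p under 0.05 from limma was found for 2 of 10, Csf2 and Osm, and for 16.7% of all probe sets. The PBS and PJ34 arrays did not overlap for the same 2 genes, 1 in each direction, and for 23.5% of all probe sets, 12.6% with PJ34 higher and 10.9% with PJ34 lower. By their means, 10 of the 10 genes lay below the array median with PBS and 9 with PJ34, and none was above it on all 6 arrays. After Benjamini-Hochberg adjustment the methods' t-test called 0 of the 10 genes, with an adjusted p of 0.110 and an unadjusted p of 0.0037 for Csf2. With all 35556 probe sets tested, those without a gene name included, Csf2 also did not pass (adjusted p = 0.0589 from limma).

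Il2, the T cell growth factor, stood beside Csf2 as the other classical activation cytokine that rose. It was at 5.75, 5.64 and 5.84 with PBS and at 6.93, 6.91 and 6.74 with PJ34, a log2 difference of 1.12 (SE 0.081, adjusted p = 0.000686 from limma). Among 19 measured genes of a list of other T cell cytokines, the median log2 difference was 0.20. At an adjusted p under 0.05, which 3.07% of all probe sets reached, limma called 4 of the 19 genes higher and 0 lower. These were Il2, Tnfsf14, which encodes the cytokine LIGHT (0.51, SE 0.068, adjusted p = 0.00779), the chemokine Ccl3 (0.83, SE 0.115, adjusted p = 0.00869), and Il17f, a cytokine of neutrophil recruitment (0.36, SE 0.078, adjusted p = 0.0470). Il17f did not pass when any 1 of the 6 arrays was left out. At an unadjusted p under 0.05 from limma, 10 of the 19 were higher and 0 lower, beside 16.7% of all probe sets in either direction. This list and those below were chosen with earlier results of these data known.

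The receptor subunits of the 10 cytokines were measured for 16 of 17 listed genes. Il6ra, the IL-6 receptor, rose from 6.93 ± 0.11 to 7.48 ± 0.05 (SD, n = 3), a log2 difference of 0.55 (SE 0.075, adjusted p = 0.00856 from limma). Il6st, the signalling subunit of the IL-6, LIF and oncostatin M receptors, rose from 7.31 ± 0.04 to 7.72 ± 0.10 (SD, n = 3), by 0.41 (SE 0.070, adjusted p = 0.0207 from limma). The other 14 did not pass, and the median over the list was -0.03, with 8 differences on each side of 0. At an unadjusted p under 0.05 from limma, 3 were higher and 3 lower. Over all probe sets 3.07% passed at an adjusted p under 0.05 and 16.7% at an unadjusted one.

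The receptor of GM-CSF had no subunit past the threshold. Csf2ra, its specific subunit, was at 4.71 ± 0.14 with PBS and 4.72 ± 0.17 with PJ34 (SD, n = 3), a log2 difference of 0.02 (95% confidence interval -0.22 to 0.26), and its level was 0.28 from the array median. Csf2rb, the subunit that GM-CSF, IL-3 and IL-5 share, had a log2 difference of 0.29 (-0.01 to 0.60, adjusted p = 0.317 from limma) and a level of -1.02 from the median. Csf2rb2, the mouse subunit for IL-3 alone, had one of 0.00 (-0.19 to 0.20). Il4ra, shared by the IL-4 and IL-13 receptors, had 0.32 and Ifngr1, which binds interferon gamma, had -0.31, with adjusted p of 0.0924 and 0.0523 from limma. Leaving out an array kept Il6ra past the threshold in 6 of 6 fits, and Il6st in 1 of 6, that without the first PJ34 array.

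**Figure D2:**
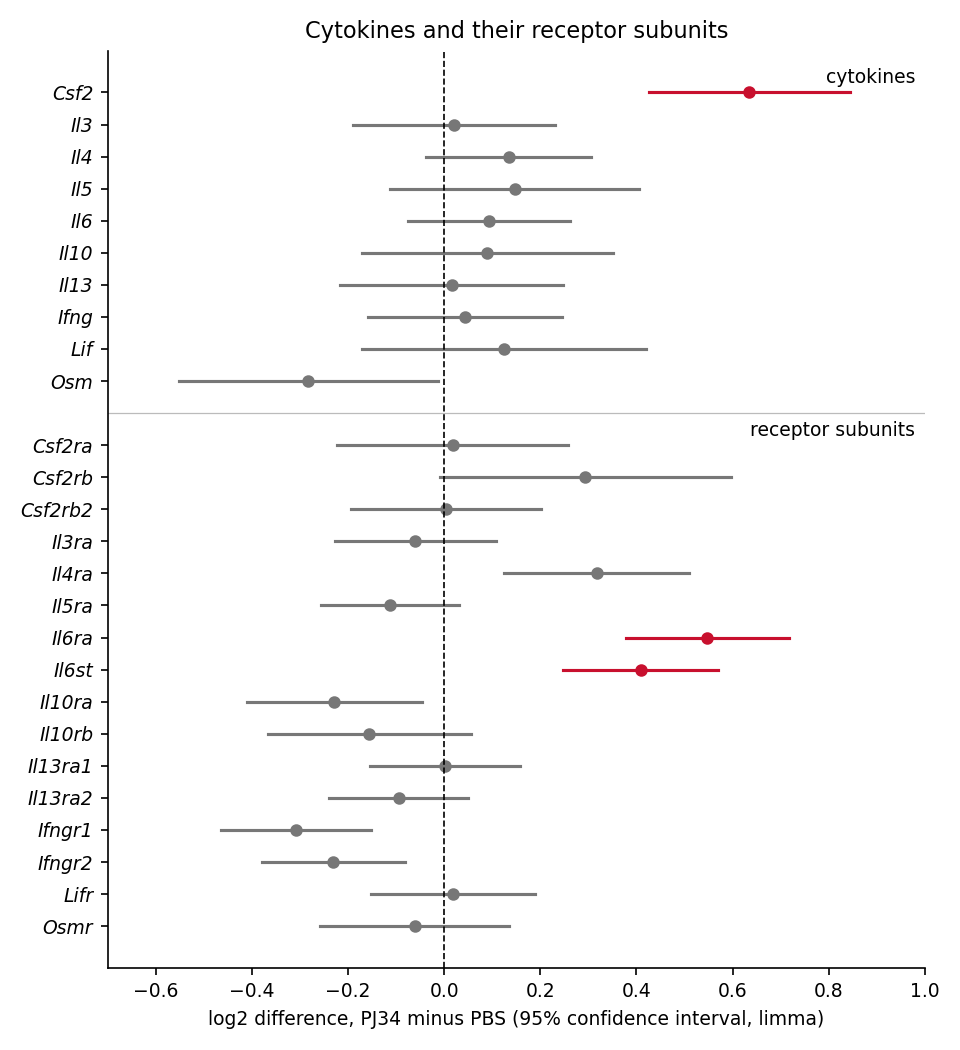
Log2 difference, PJ34 minus PBS (horizontal axis), with its 95% confidence interval from limma, of the 10 cytokine genes and of 16 receptor subunits (vertical axis). Red marks the genes with an adjusted p under 0.05, which are Csf2, Il6ra and Il6st, and grey the others.

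In the cluster of chromosome 11 Csf2 passed the test, and the measured genes around it did not pass. In chromosome order P4ha2, Csf2, Il3 and Acsl6 follow each other, with log2 differences of 0.04, 0.63, 0.02 and -0.08. Rad50, a DNA repair gene between Il13 and Il5 that holds control elements of the locus, was at 0.00, and Irf1, an interferon response factor beside Il5, at -0.08. Taking the 4 protein-coding genes on either side of each cytokine gene, 46 of 47 neighbours were measured, and 0 of 46 passed at an adjusted p under 0.05 from limma or from the methods' t-test, beside 3.07% of all probe sets by limma. Whether Csf2 differed from these 46 neighbours was not tested. It was compared within arrays with the other cytokine genes of the cluster. Its log2 difference exceeded theirs by 0.61 for Il3, 0.50 for Il4, 0.62 for Il13 and 0.49 for Il5. The exact two-sided permutation test gave p = 0.1, the smallest that 3 arrays against 3 allow, but p = 0.2 for Il5, where the groups overlapped. At an unadjusted p under 0.05 from limma, 4 of the 46 neighbours were higher and 2 lower, beside 16.7% of all probe sets in either direction. The median over the neighbours was 0.03. Fnip1, a partner of folliculin in the same cluster, was among the 4, with 0.18 (95% confidence interval 0.02 to 0.34, adjusted p = 0.228 from limma). The neighbour nearest to passing in this cluster was Septin8, beside Kif3a, with -0.30 (adjusted p = 0.102 from limma).

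**Figure D3:**
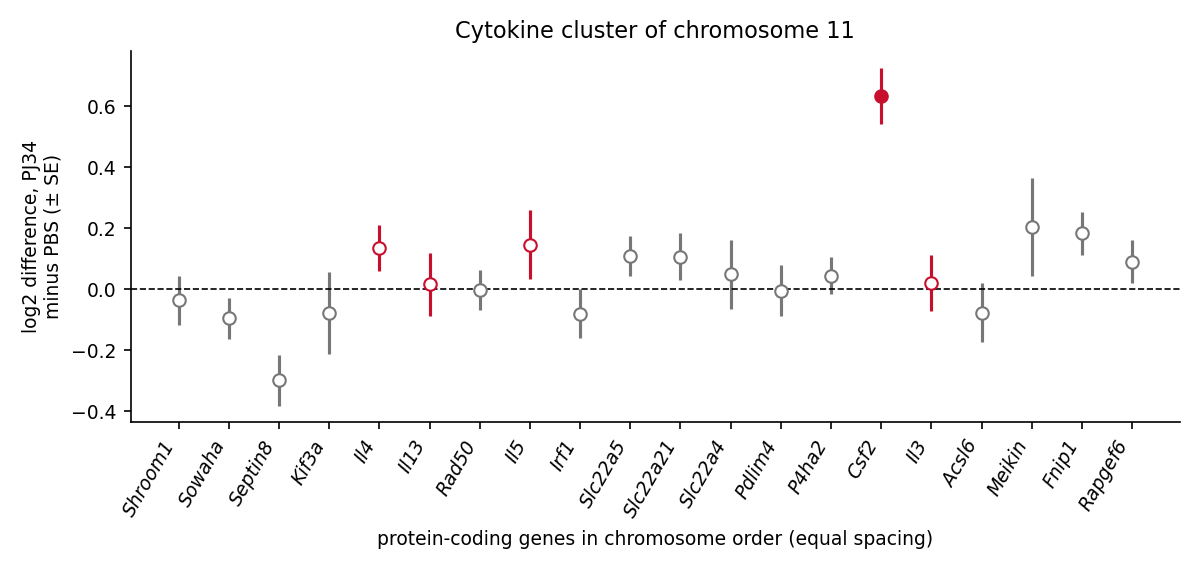
Log2 difference, PJ34 minus PBS, with its SE from limma (vertical axis), for 20 protein-coding genes of mouse chromosome 11 in chromosome order with equal spacing (horizontal axis). Red marks the cytokine genes and a filled point an adjusted p under 0.05. Csf2 is at 0.63 and Il3 beside it at 0.02.

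Transcription factors that are known to act on these cytokine genes were measured for 38 of 40 listed genes. By limma 11 were higher and 0 lower at an adjusted p under 0.05, beside 1.72% and 1.35% of all probe sets. The median log2 difference was 0.20. Fos, a subunit of AP-1, rose from 4.56 ± 0.17 to 5.72 ± 0.06 (SD, n = 3), by 1.16 (SE 0.090, adjusted p = 0.000751 from limma). The early nuclear receptors Nr4a2 and Nr4a1 rose by 0.93 and 0.77, and Egr1, an early zinc finger factor, by 0.92. Fosl2, another AP-1 subunit, rose by 0.64 (adjusted p = 0.0104 from limma), which it did not keep without the second PBS array. The other 6 that passed were Egr2, Fosb, Gata3, Rel, Nfatc2 and Relb, between 0.34 and 0.54. At an unadjusted p under 0.05 from limma, 21 of 38 were higher and 0 lower, beside 16.7% of all probe sets in either direction. Leaving out 1 array gave 5 to 7 of 38 in place of 11. Nfatc2 and Rel, a calcium-dependent factor and an NF-κB subunit, passed in 0 of these 6 fits. Gata3 and Relb each passed in 1 of the 6, Fosb in 2 and Egr2 in 3.

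Regulators of mRNA decay were all measured, 19 of 19, with a median log2 difference of 0.08. At an adjusted p under 0.05 limma called 6 higher and 0 lower, beside 1.72% and 1.35% of all probe sets. Zfp36, which binds AU-rich elements and shortens the life of cytokine mRNAs, rose from 5.82 ± 0.10 to 6.89 ± 0.18 (SD, n = 3), by 1.07 (SE 0.10, adjusted p = 0.00188 from limma). Tob1, Btg2 and Btg1, which recruit deadenylases, rose by 0.88, 0.84 and 0.81. Zfp36l2, a relative of Zfp36, rose by 0.37, and passed in 1 of the 6 fits that left out an array. Zc3h12a, the RNase regnase-1, was at 0.07 (adjusted p = 0.718 from limma). The factors named so far are known to lower the mRNAs they act on, and Elavl1, which is known to stabilise them, was at 0.15 and did not pass.

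**Figure D4:**
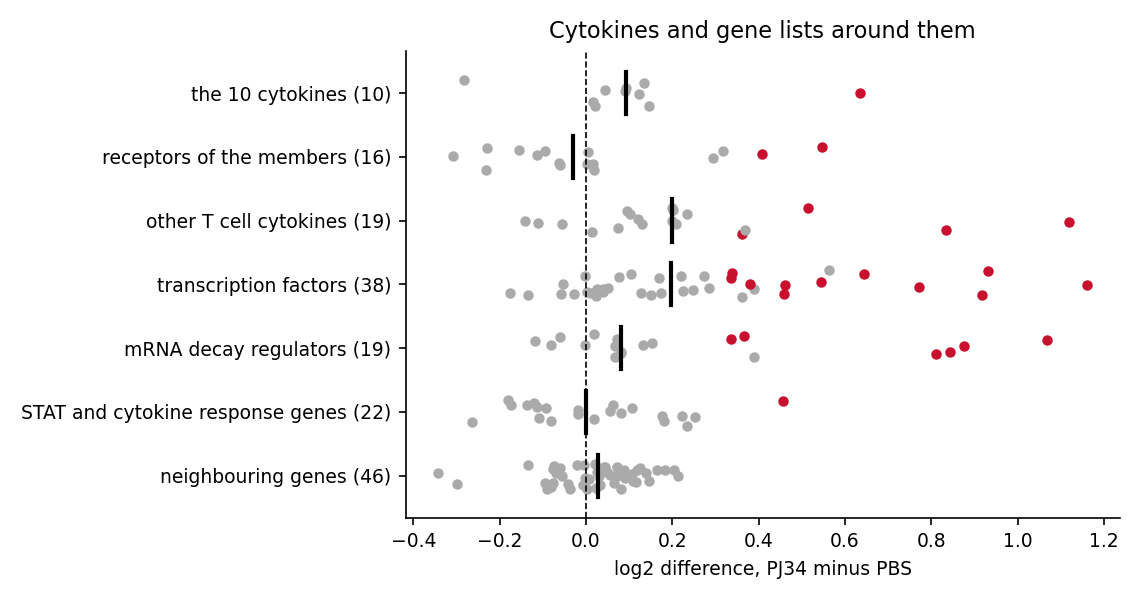
Log2 difference, PJ34 minus PBS, on the horizontal axis for every measured gene of the lists on the vertical axis, with the number measured, where red points passed at an adjusted p under 0.05 from limma and vertical bars are list medians. The medians are 0.09 for the 10 cytokines, 0.20 for the transcription factors and 0.00 for the STAT and cytokine response genes.

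Genes downstream of the cytokine receptors were measured for 22 of 25, with a median log2 difference of 0.00. At an adjusted p under 0.05, which 3.07% of all probe sets reached, limma called 1 of the 22 genes higher and 0 lower. That gene was Jak1, a kinase bound to many of these receptors, with 0.46 (SE 0.061, adjusted p = 0.00824 from limma). Genes that STAT factors induce after such signals did not pass, with log2 differences of -0.26 for Cish, 0.22 for Socs1, 0.18 for Socs2 and 0.06 for Pim1. At an unadjusted p under 0.05 from limma, 5 of the 22 were higher and 3 lower, beside 16.7% of all probe sets in either direction.

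The 5 genes whose pattern over the 6 arrays was most like that of Csf2 were Nabp1, Bmp2k, Fcgr1, Bhlhe40 and H2bc21, of 19938 genes compared. After the PBS mean of each gene was subtracted, their root mean square difference from Csf2 was 0.039, 0.043, 0.059, 0.063 and 0.063 log2 units. Their log2 differences between groups were 0.63, 0.61, 0.63, 0.58 and 0.68. The genes were picked by this likeness, so log2 differences near that of Csf2 follow from the choice. None of the 5 was a cytokine, and all 5 lay between 2.71 and 3.85 above the array median.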

How the data were processed

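C1498 cells with PBS (3 arrays) or PJ34 (3 arrays) were measured on the Affymetrix Mouse Gene 1.0 ST array. The authors summarised the arrays by RMA in Affymetrix Expression Console 1.3.1, and the deposited values are log2 expression values, already background corrected and normalized. GEO's platform table names 21789 of 35556 probe sets by 1 gene, 1621 by several and lists none for 12146. The named probe sets and 2 from the study's tables (23412 in all) were compared with limma 3.58.1 in R 4.3.3 (lmFit, eBayes, no covariates), adjusted by Benjamini-Hochberg. Csf2 and the other 9 genes were all named, and of each list those that passed, at most the 5 with the lowest p, plus receptor subunits, transcription and decay factors needed to describe the pathway; others named here were chosen after their values were seen. The genes and lists were chosen with earlier results of these data known. limma was checked on simulated data. Alternatives left out each array, rescaled the arrays, changed the variance model, the test or the probe sets, or added a replicate block. The arrays' number limits the precision. Promoters came from RefSeq, GRCm38.p6. Figures were drawn with matplotlib 3.10.9 in Python 3.11.15.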

Additional observations from a re-analysis of the deposited data

How the results depend on the processing

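Csf2 kept its direction in 12 of 12 alternatives (log2 difference 0.54 to 0.69) and passed in 10, with an adjusted p from 0.00168 to 0.110; leaving out 1 array gave 0.0165 to 0.0495. It did not pass with the methods' t-test (log2 difference 0.63, adjusted p = 0.110) or with all 35556 probe sets tested (0.63, adjusted p = 0.0589 from limma), so that the count of cytokine genes called was 0 in both. None of the other 9 passed in any alternative (Osm: adjusted p 0.143 to 0.489), and the sign of the difference changed in 1 alternative for Ifng and Il3, 2 for Il10 and 3 for Il13. When dim probe sets were left out, 12698 remained and none of the 10 cytokine genes was among them. Against 403 probe sets higher and 315 lower, leaving out 1 array gave 148 to 282 and 83 to 321. The fit without the second PJ34 array gave 282 and 321, and arrays centred on their medians 333 and 366. Both turned the larger direction. Quantile normalization repeated gave 513 and 463, the intensity trend with robust eBayes 1009 and 921, and dim probe sets left out 892 and 777. All probe sets tested gave 112 and 76, and the methods' t-test 78 and 65. Receptor calls (2) became 1 to 2 without 1 array, 5 with the trend or without dim probe sets, and 0 with the t-test or all probe sets. Calls among other T cell cytokines (4) became 1 with the t-test and 2 with all probe sets. Transcription factor calls (11) became 5 to 7 without 1 array, 17 with the trend or without dim probe sets, 2 with the t-test and 4 with all probe sets. Decay regulator calls (6) became 1 with the t-test, STAT and response gene calls (1) became 3 with the trend and 2 without dim probe sets, and neighbour calls (0) became 1 with the trend or without dim probe sets. The cause of these shifts was not tested. The array numbers did not pair the samples (correlations of deviations -0.013, 0.13 and -0.0092; 2 of 6 arrays correlated best with their own number). The replicate block gave 222 higher and 143 lower, 7 transcription factors, and an adjusted p of 0.0176 for Csf2. Each cytokine gene had 1 probe set, so the alternatives on several probe sets a gene were not run. With the median of the named probe sets as reference, 10 of 10 genes lay below it with PJ34 in place of 9.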
